A study of Homo sapiens with 9 samples.

Results

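Deprivation of oxygen and glucose (OGD) for 4 h was compared with no deprivation in hCMEC/D3 cells, with 3 libraries in each group, across the genes of the deposited expression table. These are 6 of the 9 libraries of the series. The remaining 3, from cells returned to normal medium after OGD, are not part of the comparison. They served to estimate the spread of each gene, counted in the expression filter and entered the alternative scalings. hCMEC/D3 is an immortalised human brain microvascular endothelial line that stands in for the blood-brain barrier in culture, and all groups are this 1 line. Per the labels, OGD cells were grown to 80% confluence, moved to medium without glucose and kept in an anaerobic chamber under 95% N2 and 5% CO2. Control cells received no deprivation. The loss of oxygen, the loss of glucose and the change of medium came together, and their parts in any difference cannot be told apart. Values are FPKM (sequenced fragments relative to transcript length and to all fragments mapped). Of 15570 genes listed, 10818 reached 1 FPKM in 3 or more of the 9 libraries and were tested. Nothing states that replicates were separate cultures. The p-values therefore measure the spread of these 3 libraries a group and no more, and that spread may be technical.

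A cell that loses glucose and oxygen can answer through several known routes. Glycoproteins need sugar and energy to fold, and unfolded proteins in the endoplasmic reticulum (ER) set off the unfolded protein response, in which the sensors ATF6, IRE1 and PERK raise chaperones through ATF6 and XBP1 and slow translation through phosphorylation of eIF2. That phosphorylation favours translation of ATF4, which turns on amino acid genes and CHOP, an arm shared with amino acid shortage and called the integrated stress response. Low oxygen stabilises the HIF transcription factors, which raise glycolytic genes, while glucose drives TXNIP and its relatives through the factors MondoA and ChREBP.

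At an adjusted p under 0.05 (limma, Benjamini-Hochberg), 6272 genes differed, 58.0% of those tested. Of these 1218 were higher in OGD (11.3%) and 5054 lower (46.7%), and at least 2-fold changes numbered 169 higher (1.56%) and 501 lower (4.63%). This balance belongs to the deposited scale, on which the median over all genes of the log2 fold change was -0.31. After median-of-ratios scaling the split was 2930 higher (27.1%) and 2422 lower (22.4%), with a median of 0.01. Scaling to a common sum gave 608 higher (5.62%) and 7046 lower (65.1%), and removal of the transcript length trend gave 2479 lower (22.9%). The control and OGD replicates did not overlap in 7039 genes, 65.1% of those tested. All 1218 genes called higher on the deposited scale were also called higher after median-of-ratios scaling, as were 2422 of the 5054 called lower in their direction. A relative median below is a list's median log2 fold change minus that of all genes. Calls that were the same on the deposited scale and under all 4 other scalings (median-of-ratios, common sum, quantile, transcript length trend removed) numbered 537 higher (4.96%) and 1730 lower (16.0%). Below, a gene is said to have risen or fallen only if it was called, and its call also held under those 4 scalings and without any 1 of the 6 libraries unless an exception is given. Not called means on the deposited scale. Of the genes so described P4HB, ATF6, CHAC1, SLC7A5, OGT, GFPT1, EPAS1, HSP90AA1 and IL6 were higher after median-of-ratios scaling. With the length trend removed EIF2AK3, EDEM1, OCLN and MCAM were higher. GAPDH, VEGFA, ANKRD37, ARRDC2, ICAM1, CCND1, NRP1, TRIM5, EPAS1, MCAM and HSP90AA1 were lower under at least 1 of the 4 scalings. All log2 fold changes were taken on log2(FPKM + 1), so they understate changes of genes with low FPKM. In bulk RNA, fewer cells of a type and less RNA per cell cannot be told apart.

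The libraries differed in composition as well as in single genes. The 79 cytosolic ribosomal protein genes took 19.55%, 18.97% and 24.07% of summed FPKM in control and 31.0% to 32.6% in OGD. Control replicate 3 stood toward OGD: it correlated with the OGD libraries at 0.975 to 0.977, against 0.953 to 0.962 for the other controls, and it was the control nearest to the OGD mean in 65.0% of called genes. Without it, 244 genes were at least 2-fold higher and 848 lower. Changes also followed transcript length, with a median log2 fold change of -0.21 in the shortest of 10 equal bins, -0.13 in the third and -0.46 in the longest. The parts of composition and length in the results were not tested beyond the scalings above.

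Several promoters of ER chaperones hold a known element. The ER stress response element (ERSE) is CCAAT, 9 bases of any kind, and CCACG, and is known as a joint site of the general factor NF-Y and of ATF6 or XBP1. It was searched on both strands in the 250 bases before 1 start of each of 8999 tested genes with a RefSeq promoter (GRCh38.p14), and it was found for 14 genes, 0.156%. It lay in 5 of the 20 chaperone promoters searched. Where RefSeq lists several starts, only the first in its table was searched, and for CANX that start lies inside the annotated span of the gene. Those windows that belong to chaperones, a BiP regulator and XBP1 are shown. They were chosen because they hold the element and their 7 genes were higher in OGD, so they do not stand for all chaperones. Each runs 5′ to 3′ in the direction of its gene and ends before that start, and capitals mark both ends of the element, which read CGTGG and ATTGG where it lies on the opposite strand. The windows lie at chr9:125241380-125241439 (HSPA5, minus strand), chr12:103930206-103930345 (HSP90B1, plus), chr19:12938369-12938428 (CALR, plus), chr22:49918524-49918583 (CRELD2, plus), chr5:179698748-179698807 (CANX, plus), chr12:108515093-108515152 (FICD, plus) and chr22:28800592-28800651 (XBP1, minus).
HSPA5: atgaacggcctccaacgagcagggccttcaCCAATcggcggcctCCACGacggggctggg
HSP90B1: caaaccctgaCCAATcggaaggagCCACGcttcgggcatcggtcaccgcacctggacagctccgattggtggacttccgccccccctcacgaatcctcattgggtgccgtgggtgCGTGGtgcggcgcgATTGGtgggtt
CALR: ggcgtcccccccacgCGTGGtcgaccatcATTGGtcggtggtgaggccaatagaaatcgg
CRELD2: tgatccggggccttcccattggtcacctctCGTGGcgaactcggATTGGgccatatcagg
CANX: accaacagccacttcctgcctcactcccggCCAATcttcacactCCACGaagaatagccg
FICD: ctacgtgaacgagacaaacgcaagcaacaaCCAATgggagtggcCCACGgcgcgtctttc
XBP1: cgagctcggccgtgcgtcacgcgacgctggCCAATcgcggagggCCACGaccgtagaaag

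Of the 14 genes with an ERSE, 12 were higher in OGD, 0 lower and 2 not called. Among all genes with a promoter 11.3% were higher and 46.8% lower. Their median log2 fold change was 0.86, against -0.31. The 12 were also higher after median-of-ratios, quantile and length scaling, and 10 were after scaling to a common sum, where ALG12 and SERP1 lost the call and 1 gene was lower. The CCAAT box alone lay in 35.7% of promoters, and 11.9% of the genes with it were higher. Besides the 7 shown, the higher genes included EIF2A (log2 fold change 0.90), an alternative initiation factor, TMEM120A (0.82, which overlaps POR), and ERO1B (0.79), an oxidase that feeds disulfide formation. The other two were ALG12 (0.57, which overlaps ZBED4), a mannosyltransferase of N-glycan assembly, and SERP1 (0.47), which protects new membrane proteins at the translocon. TRIM5 (-0.28) and ZNF17 (-0.29) were not called. HSP90B1 holds the element at 2 places. Over all 14 genes there were 13 sites on the genome, because 2 sites lay between genes that start back to back. CRELD2 and ALG12 share 1 of these (chromosome 22), and EIF2A and SERP1 share the other (chromosome 3), and both members of each pair were higher. A match describes the letters only and does not show binding.

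**Figure D1:**
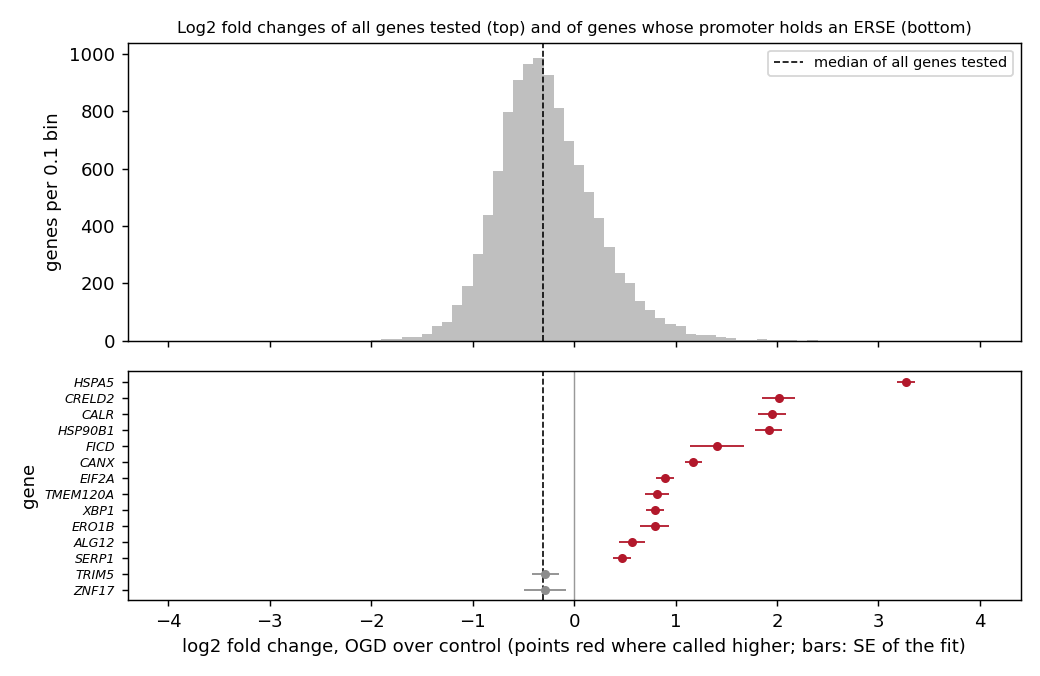
Log2 fold changes (OGD over control, on log2(FPKM + 1)) of all 10818 genes tested as a histogram, and of the 14 genes whose promoter holds an ERSE as points with the SE of the fit; the dashed line is the median of all genes, -0.31. The 12 genes called higher (red) lie between 0.47 and 3.27, and the 2 not called (grey) lie close to the dashed line.

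Chaperones of the ER lumen were higher almost throughout. Of 21 chaperones and cofactors of BiP, 18 were higher and 1 lower, and 16 were higher under all 5 scalings. Their median log2 fold change was 1.32 (relative median 1.63). HSPA5 encodes BiP, the Hsp70 of the ER, and stood at 74.4, 65.4 and 72.4 FPKM in the control libraries and 746, 664 and 662 in the OGD libraries (log2 fold change 3.27, SE 0.09, adjusted p = 6.26e-10). HSP90B1, its Hsp90 partner GRP94, stood at 287, 198 and 280.0 FPKM in control and 1025, 924 and 916 in OGD (log2 fold change 1.92, SE 0.13, adjusted p = 1.29e-06). CALR, the lectin chaperone calreticulin, reached 1443, 1634 and 1343 FPKM from 427, 299 and 425 in control. No OGD library overlapped a control library for any of these, and control replicate 2 was the lowest control for each. The cofactors moved with them. SDF2L1, which keeps BiP clients soluble, rose, with 27.3 to 35.9 FPKM in control and 201 to 219 in OGD (log2 fold change 2.68). MANF, a secreted ER stress protein, rose, with 78.6 to 136 FPKM in control and 603 to 644 in OGD (2.51), and so did CRELD2, with 13.7 to 25.04 FPKM in control and 78.9 to 82.4 in OGD (2.02). FICD, which switches BiP off and on by adding and removing AMP, was low and spread widely in control, at 0.413, 1.36 and 2.87 FPKM, and stood at 5.26, 5.42 and 4.99 in OGD. DNAJB9, a J-protein that restrains IRE1, rose, with 19.4 to 21.9 FPKM in control and 49.2 to 58.9 in OGD. HYOU1, an exchange factor for BiP, rose, with 10.01 to 13.2 FPKM in control and 31.7 to 33.4 in OGD. The exception was SERPINH1, the collagen chaperone HSP47, at 79.4, 68.3 and 74.9 FPKM in control and 47.3, 53.4 and 50.8 in OGD, which was lower on the deposited scale (-0.55) and not called after median-of-ratios scaling.

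The neighbouring steps of the secretory pathway split, with relative medians of 0.47 for oxidative folding, 0.54 for translocation and N-glycosylation, 0.18 for degradation and 0.15 for ER to Golgi transport. Of 18 protein disulfide isomerases and ER oxidases 6 were higher and 5 lower (12 and 1 after median-of-ratios scaling, 5 and 6 after scaling to a common sum). PDIA4 rose, with 17.8 to 22.1 FPKM in control and 53.2 to 56.5 in OGD (log2 fold change 1.40, SE 0.09, adjusted p = 9.13e-07). PDIA6, which overlaps ATP6V1C2, rose, with 143 to 176 FPKM in control and 350.5 to 377 in OGD, and PDIA3, which overlaps ELL3, rose, with 108 to 153 FPKM in control and 266 to 342 in OGD. P4HB, the classical isomerase, was not called at 164 to 177 FPKM in control and 181 to 206 in OGD, and TMX3, a membrane-bound member, fell (log2 fold change -0.68). Among 34 genes of translocation, signal peptide cleavage and N-glycosylation 17 were higher and 2 lower (27 and 0 after median-of-ratios scaling, 9 and 7 after scaling to a common sum). The largest change there was in SEC11C, a catalytic subunit of signal peptidase, at 38.9, 42.1 and 47.6 FPKM in control and 164, 153 and 162 in OGD (log2 fold change 1.88, SE 0.09, adjusted p = 9.53e-08). SSR4, a subunit of the translocon-associated complex that overlaps IDH3G, rose, with 141 to 154 FPKM in control and 313 to 361 in OGD.

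ER-associated degradation was mixed, with 5 of 25 members higher and 8 lower (11 and 3 after median-of-ratios scaling). The 5 higher ones belong to the membrane complex that exports substrates. HERPUD1, which helps assemble it, rose, with 31.8 to 38.7 FPKM in control and 120.3 to 136 in OGD (log2 fold change 1.84, SE 0.09, adjusted p = 1.07e-07). SEL1L, its scaffold, rose, with 7.31 to 9.17 FPKM in control and 13.2 to 16.8 in OGD, and DERL2, a channel component that overlaps MIS12, rose, with 48.3 to 56.2 FPKM in control and 81.2 to 85.1 in OGD. The other two were its ubiquitin ligase SYVN1 (log2 fold change 0.62, not called after scaling to a common sum or without control replicate 2 or OGD replicate 3) and SELENOS (0.47). NPLOC4, a cofactor of the extraction ATPase p97 (log2 fold change -0.76), and UBXN4, an ER membrane protein that binds p97 (-0.80), fell, and the mannosidase-like EDEM1 was not called (-0.13). Of 39 genes of ER to Golgi transport 7 were higher and 14 lower (19 and 3 after median-of-ratios scaling), so the direction of that group depends on the scaling. SEC23A, a coat protein of vesicles that leave the ER, fell under every scaling, with 33.8 to 48.6 FPKM in control and 16.5 to 20.0 in OGD (log2 fold change -1.16, SE 0.13, adjusted p = 3.48e-05). KDELR1, a receptor that returns chaperones to the ER and overlaps GRIN2D, also fell (-0.71).

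Among sensors and regulators of the response 1 of 12 was higher and 5 lower (3 and 4 after median-of-ratios scaling), with a relative median of 0.12. The higher one was XBP1, whose mRNA is spliced by IRE1 to give the active factor, at 50.2, 53.4 and 46.4 FPKM in the control libraries and 87.4, 87.3 and 87.6 in the OGD libraries (log2 fold change 0.80, SE 0.09, adjusted p = 2.67e-05). The OGD libraries lay within 1 FPKM of each other, and FPKM per gene do not separate the spliced form. ERN1, which encodes IRE1, was below the expression filter, at 0.734 to 0.952 FPKM in control and 0.567 to 0.777 in OGD. EIF2AK3, which encodes PERK, was at 6.13 to 7.95 FPKM in control and 6.29 to 6.87 in OGD and was not called, and neither was ATF6 (12.03 to 13.3 FPKM in control and 14.2 to 14.5 in OGD). Among those called lower were WFS1, an ER membrane protein that restrains ATF6, at 10.5, 10.1 and 8.84 FPKM in control and 3.19, 3.503 and 3.13 in OGD (log2 fold change -1.34, SE 0.11, adjusted p = 4.94e-06). Others were MBTPS1, the protease that activates ATF6 (-0.62), and the related factors CREB3L1 (-0.86) and CREB3L2 (-0.75).

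The ATF4 and CHOP list holds regulators as well as targets, and its genes moved in opposite directions. Of 25 tested 9 were higher and 11 lower (12 and 7 after median-of-ratios scaling), with a relative median of 0.24. DDIT3, which encodes CHOP, had the largest log2 fold change of the genes with a group mean of at least 10 FPKM. It stood at 36.1, 23.9 and 36.1 FPKM in the control libraries and 354, 359.5 and 371 in the OGD libraries (log2 fold change 3.48, SE 0.14, adjusted p = 1.01e-08). It overlaps MARS1, whose values were 45.1 to 48.8 FPKM in control and 45.1 to 47.3 in OGD. TRIB3, a pseudokinase induced by CHOP, stood at 33.7, 30.98 and 27.7 FPKM in control and 63.2, 63.6 and 63.6 in OGD (1.02). PPP1R15A, the GADD34 subunit that reverses eIF2 phosphorylation, stood at 24.9, 17.8 and 20.1 FPKM in control and 50.8, 56.9 and 50.95 in OGD (1.31), and ATF4 itself stood at 370.5, 292 and 336 FPKM in control and 534, 518 and 549 in OGD (0.69). NUPR1, GDF15 and CEBPG also rose (log2 fold changes 1.54, 1.11 and 0.58). SESN2, a stress-induced inhibitor of mTORC1, was higher (0.41) but not after scaling to a common sum or without OGD replicate 2 or 3. Other textbook targets did not follow. ATF3 was at 12.1, 14.9 and 15.7 FPKM in control and 9.96, 8.92 and 10.3 in OGD, lower on the deposited scale (-0.50) and not called after median-of-ratios scaling or quantile normalization. CHAC1, a glutathione-degrading enzyme, was at 12.8, 11.3 and 11.1 FPKM in control and 13.8, 12.7 and 14.9 in OGD and not called. DDIT4, an mTORC1 inhibitor, fell, with 203 to 282 FPKM in control and 100.2 to 103 in OGD (log2 fold change -1.23, SE 0.11, adjusted p = 8.28e-06). CEBPD, a C/EBP factor, fell, with 73.1 to 94.96 FPKM in control and 14.1 to 17.6 in OGD (log2 fold change -2.35, SE 0.12, adjusted p = 1.07e-07). Of the kinases that phosphorylate eIF2, the interferon-induced EIF2AK2 (PKR, which overlaps GPATCH11) fell (log2 fold change -1.17). EIF2AK1, which overlaps AIMP2 and ANKRD61, fell too (-0.59), and EIF2AK4 (GCN2) was lower (-0.63) except with the length trend removed.

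**Figure D2:**
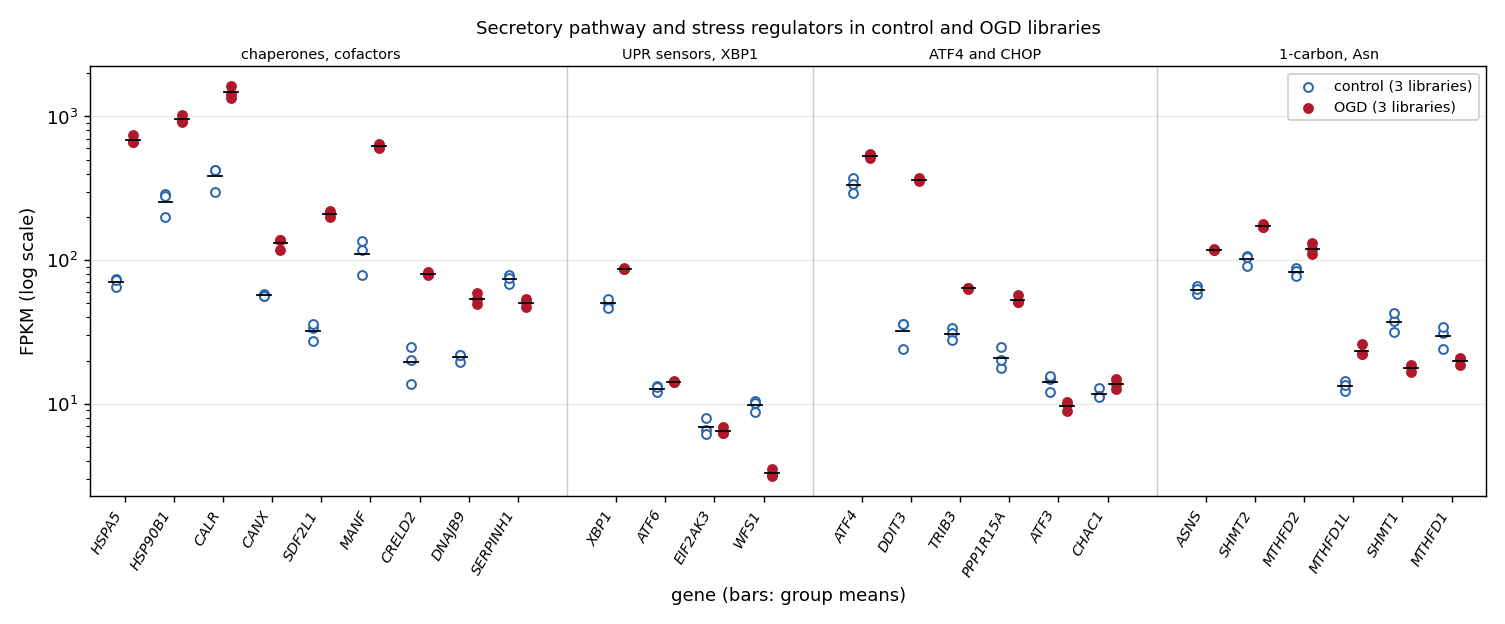
FPKM on a log axis of 25 genes in each control library (open circles) and each OGD library (filled circles), with group means as bars. HSPA5 and DDIT3 stand furthest apart, XBP1 is higher with almost no spread in OGD, EIF2AK3 and ATF6 lie at about their control level, and SHMT1 and MTHFD1 lie below control while SHMT2, MTHFD2 and MTHFD1L lie above.

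Of 18 genes of asparagine, serine, proline and one-carbon metabolism 8 were higher and 4 lower (5 and 7 after scaling to a common sum). The relative median was 0.44, and of all tested genes 11.3% were higher and 46.7% lower. The folate enzymes MTHFD1L, MTHFD2 and MTHFD1 below were chosen after their values were seen. SHMT2 and MTHFD1L are mitochondrial enzymes that handle one-carbon units taken from serine. SHMT2, which overlaps NDUFA4L2, stood at 107, 106 and 90.9 FPKM in control and 169.7, 178 and 170.2 in OGD (log2 fold change 0.77, SE 0.09, adjusted p = 5.18e-05). MTHFD1L stood at 14.5, 12.3 and 13.4 FPKM in control and 22.1, 22.4 and 25.97 in OGD (log2 fold change 0.77, SE 0.11, adjusted p = 1.27e-04). MTHFD2 (which overlaps SLC4A5) was also higher (0.53), but not after scaling to a common sum. SHMT1, the cytosolic partner of SHMT2 that overlaps SMCR8, fell, with 37.8, 42.7 and 31.6 FPKM in control and 16.6, 18.2 and 18.6 in OGD (log2 fold change -1.02, SE 0.11, adjusted p = 3.22e-05). Cytosolic MTHFD1 (which overlaps ZBTB25) was lower on the deposited scale (-0.54) and not called after median-of-ratios scaling or quantile normalization. ASNS, asparagine synthetase, stood at 65.7, 58.4 and 62.8 FPKM in control and 118, 119 and 117 in OGD (log2 fold change 0.91, SE 0.10, adjusted p = 2.58e-05). PSAT1, the aminotransferase of serine synthesis, stood at 100.1, 102 and 96.03 FPKM in control and 155, 152 and 152 in OGD (0.62). PHGDH, the first enzyme of that pathway, was below the filter with no value above 0.139 FPKM in the 6 libraries.

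The ATF4 element (TGATG, any base, AA) was searched because ATF4 targets carry such composite C/EBP-ATF sites. It lay in 1.27% of all promoters and in 3 of the 11 searched for the amino acid enzyme list (27.3%). Over the 114 tested genes with it, 15.8% were higher and 44.7% lower, near the 11.3% and 46.8% of all genes with a promoter. Windows with it are shown for a gene that rose (ASNS, chr7:97872447-97872506, minus strand), 1 that was not called (CHAC1, chr15:40953232-40953291, plus) and 1 that was lower (ATF3, chr1:212565186-212565245, plus), with the element in capitals. In CHAC1 it lies on the opposite strand and reads TT, any base, CATCA.
ASNS: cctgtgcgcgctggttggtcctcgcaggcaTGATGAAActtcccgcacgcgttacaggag
CHAC1: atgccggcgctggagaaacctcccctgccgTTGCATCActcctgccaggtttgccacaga
ATF3: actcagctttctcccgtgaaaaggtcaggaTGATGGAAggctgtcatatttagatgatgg

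Of 18 amino acid transporters 5 were higher and 5 lower (8 and 4 after median-of-ratios scaling, 2 and 9 after scaling to a common sum). Of 20 cytosolic aminoacyl-tRNA synthetases, which load tRNAs, 8 were higher and 1 lower (18 and 0, and 3 and 6, under the same scalings). Relative medians were 0.17 for the transporters and 0.56 for the synthetases. Of all tested genes 11.3% were higher and 46.7% lower. SLC3A2, the heavy chain shared by several exchangers, rose, with 66.5 to 100.5 FPKM in control and 176 to 187 in OGD (log2 fold change 1.20, SE 0.13, adjusted p = 2.41e-05). Its light chain SLC7A5, the large neutral amino acid carrier of the barrier, was not called at 13.03 to 19.9 FPKM in control and 17.4 to 17.9 in OGD. SLC7A11, its cystine-importing partner, was higher at 6.49 to 7.23 FPKM in control and 9.09 to 11.1 in OGD (0.49) except after scaling to a common sum. SLC38A2, a carrier known to be raised by amino acid shortage, fell, with 127 to 153 FPKM in control and 65.2 to 83.2 in OGD (log2 fold change -0.99, SE 0.12, adjusted p = 6.56e-05). Among synthetases SARS1 (log2 fold change 0.88) and AARS1 (0.87) rose.

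Of 6 tested genes of the TXNIP and alpha-arrestin list 4 were lower and 0 higher (3 and 1 after median-of-ratios scaling), with a median of -0.62 (relative median -0.31). The 4 include MLXIP, which encodes the factor MondoA (log2 fold change -0.39). It was under 1 FPKM in all 6 libraries, so it passed the filter only through libraries returned to normal medium. MLXIP lost its call after median-of-ratios scaling, quantile normalization and removal of the length trend. It also lost it without control replicate 1 or 2 or OGD replicate 2 or 3. TXNIP, which restrains glucose uptake and binds thioredoxin, had the largest fall of the genes with a group mean of at least 10 FPKM. It stood at 19.5, 19.1 and 17.3 FPKM in the control libraries and 0.934, 1.09 and 1.22 in the OGD libraries (log2 fold change -3.24, SE 0.12, adjusted p = 9.82e-09). Its relative ARRDC3 stood at 30.7, 29.9 and 25.8 FPKM in control and 9.999, 7.899 and 8.304 in OGD (log2 fold change -1.62, SE 0.14, adjusted p = 4.73e-06). ARRDC1 fell as well (-0.86), whereas ARRDC2 was not called (-0.21). In the hexosamine branch, which turns glucose into the donor for protein O-GlcNAc, OGA, the enzyme that removes the sugar, fell, with 22.01, 19.5 and 18.98 FPKM in control and 4.19, 3.98 and 3.92 in OGD (log2 fold change -2.07, SE 0.10, adjusted p = 1.07e-07). OGT, which adds it, was not called and overlapped between groups (12.9, 9.46 and 13.6 FPKM in control and 17.3, 10.5 and 13.2 in OGD). GFPT1, the entry enzyme, was not called either (7.703 to 9.66 FPKM in control and 7.62 to 9.56 in OGD). UAP1, which makes the donor, rose, with 76.5 to 82.04 FPKM in control and 112 to 122 in OGD (log2 fold change 0.57, SE 0.08, adjusted p = 2.11e-04).

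Glycolysis as a list was lower, with 3 of 30 members higher and 22 lower and a median of -0.57 (relative median -0.26); after median-of-ratios scaling 4 were higher and 13 lower, and 11 were lower under all 5 scalings. LDHA, which makes lactate, stood at 1714, 1370 and 1597 FPKM in control and 856, 920.2 and 916 in OGD (log2 fold change -0.79, SE 0.11, adjusted p = 1.39e-04). Its sister subunit LDHB went the other way, at 753, 659 and 866 FPKM in control and 1086, 1057 and 1088 in OGD (log2 fold change 0.51, SE 0.11, adjusted p = 0.00183), though not after quantile normalization. ALDOC (log2 fold change -1.34), PFKFB4 (-0.93, which overlaps UCN2), PFKFB3 (-0.87), PKM (-0.70) and PGAM1 (-0.61) fell. PDK1, which keeps pyruvate out of mitochondria, was lower (-0.65) but not after median-of-ratios scaling or quantile normalization. GAPDH was not called, at 2600 to 2754 FPKM in control and 2440 to 2621 in OGD. HK2, the inducible hexokinase, was the member that rose most, at 3.68, 2.62 and 3.11 FPKM in control and 6.17, 4.98 and 5.22 in OGD (log2 fold change 0.65, SE 0.14, adjusted p = 0.00173). SLC2A1, the glucose carrier of the blood-brain barrier, was slightly higher (39.6 to 45.1 FPKM in control and 50.7 to 54.7 in OGD, log2 fold change 0.28), but not after scaling to a common sum or without OGD replicate 1. SLC2A3, the carrier with the higher affinity, was lower (-0.54) but held its call only after scaling to a common sum among the 4 scalings, and lost it without control replicate 1 or OGD replicate 2.

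Targets of HIF outside glycolysis were also mostly lower, 26 of 42 against 3 higher (median -0.53, relative median -0.22), and 18 against 9 after median-of-ratios scaling. CA9, a carbonic anhydrase used as a marker of hypoxia, stood at 23.1, 18.4 and 20.5 FPKM in the control libraries and 5.39, 5.47 and 4.79 in the OGD libraries (log2 fold change -1.80, SE 0.11, adjusted p = 4.39e-07). NDRG1 fell, with 171 to 226 FPKM in control and 93.7 to 99.01 in OGD (-1.05). BNIP3, a mitophagy receptor that overlaps PPP2R2D, fell, with 239 to 283 FPKM in control and 136 to 142 in OGD (-0.89). ADM, a vasodilator peptide, fell, with 101 to 150.0 FPKM in control and 62.6 to 71.2 in OGD (-0.84). VEGFA was not called and its groups overlapped (45.2, 37.7 and 26.7 FPKM in control and 32.4, 32.01 and 30.2 in OGD), nor was ANKRD37 (-0.13, which overlaps LRP2BP and UFSP2). EGLN3 was below the filter at 0.2296 to 0.414 FPKM in control and 0.0283 to 0.0906 in OGD. Of the 3 higher members STC2, a secreted glycoprotein that is also a target of ATF4, stood at 33.8, 27.9 and 30.1 FPKM in control and 99.9, 92.9 and 89.6 in OGD (log2 fold change 1.59, SE 0.10, adjusted p = 4.39e-07). Another was NDUFA4L2, which overlaps SHMT2 and was under 1 FPKM in all controls, so that it passed the filter only through libraries after OGD (0.291 to 0.576 FPKM in control and 1.03 to 2.39 in OGD).

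Of the oxygen sensing machinery itself, 9 of 16 members were lower and 0 higher (6 and 3 after median-of-ratios scaling), where 46.7% of all tested genes were lower. The relative median was -0.06, and 4 were lower under all 5 scalings. EGLN1, the main prolyl hydroxylase and itself a HIF target, fell, with 16.6 to 18.1 FPKM in control and 7.53 to 8.604 in OGD (log2 fold change -1.02, SE 0.11, adjusted p = 2.26e-05). HIF1A was at 76.9, 90.3 and 69.3 FPKM in control and 54.2, 47.8 and 47.02 in OGD, lower on the deposited scale (-0.65) but not after removal of the length trend. EPAS1, which encodes HIF-2 alpha, was not called (30.1 to 33.1 FPKM in control and 27.7 to 30.99 in OGD). VHL, which marks HIF for degradation, was lower (log2 fold change -1.46, SE 0.31, adjusted p = 0.00187), with control values that spread from 5.22 to 18.6 FPKM. The hypoxia core (ACGTG or GCGTG, both strands, which also lies within the E-box CACGTG) was in 87.1% of the promoters of the HIF list and in 58.6% of all. Of the genes with it 11.9% were higher and 45.0% lower. The core was also in 85.0% of ER chaperone promoters, 88.2% of those of disulfide isomerases and ER oxidases and 57.1% of those of glycolysis. Windows of CA9 (chr9:35673868-35673927, plus strand) and ADM (chr11:10304942-10305001, plus) are shown because both hold it and both genes fell.
CA9: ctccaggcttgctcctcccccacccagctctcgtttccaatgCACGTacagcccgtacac
ADM: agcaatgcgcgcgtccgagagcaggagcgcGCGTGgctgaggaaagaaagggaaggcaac

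**Figure D3:**
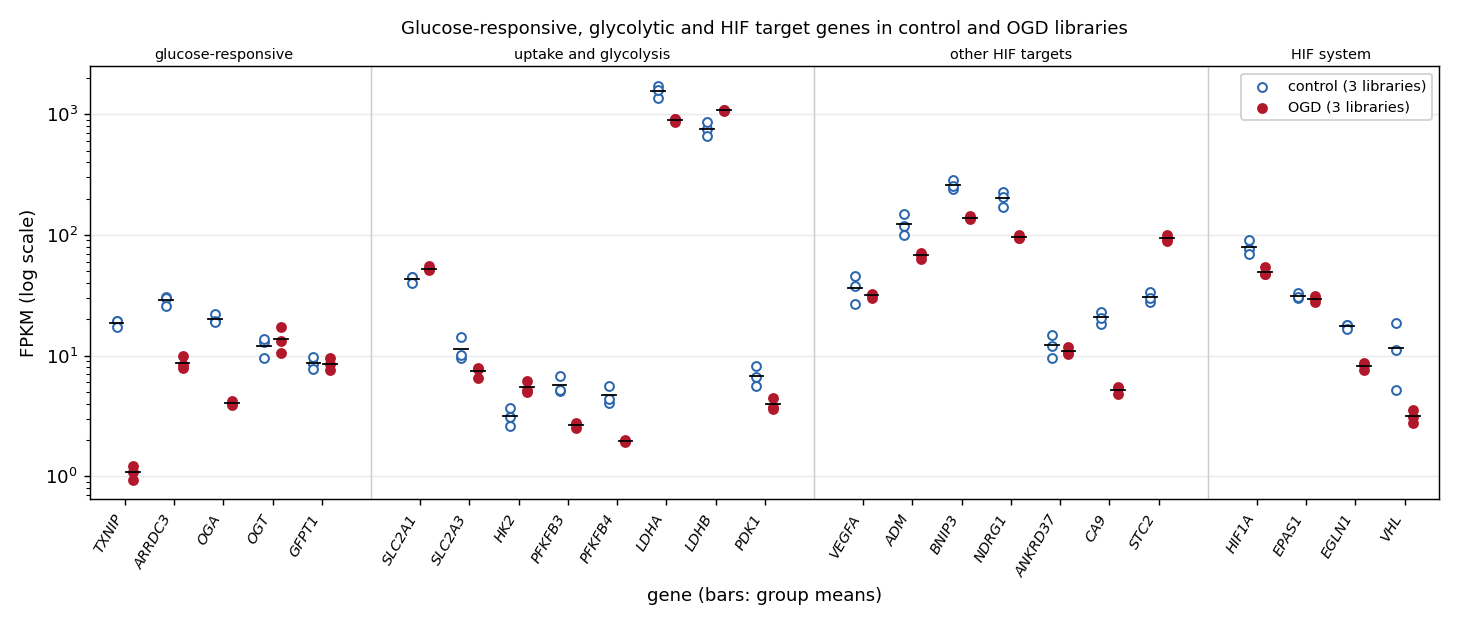
FPKM on a log axis of 24 genes of glucose response, glycolysis and the HIF system in each control library (open circles) and each OGD library (filled circles), with group means as bars. TXNIP, ARRDC3 and OGA lie far below control, and LDHA lies above LDHB in control and below it in OGD. Of the 7 genes headed other HIF targets only STC2 lies above control.

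Cytosolic ribosomal protein genes were higher almost throughout. Of 47 large subunit ribosomal proteins 46 were higher and 0 lower (median 0.91, relative median 1.22). Of 32 small subunit proteins 32 were higher and 0 lower (median 0.86, relative median 1.17). After quantile normalization 20 and 9 were higher, and 0 lower in both. Their median transcripts are short, at 683 and 669 bases against 1736.5 over all genes, and with the length trend removed 46 and 32 were higher. RPL12 stood at 968, 1030 and 1406 FPKM in control and 2784, 3079 and 2982 in OGD (log2 fold change 1.40, SE 0.14, adjusted p = 1.78e-05). RPL37 showed how far control replicate 3 lay toward OGD, with 124, 201 and 338 FPKM in control and 636, 782 and 714 in OGD (log2 fold change 1.80, SE 0.39, adjusted p = 0.00215). Close copies and pseudogenes of these genes may share reads. Nucleolar and ribosome assembly factors, whose median transcript is longer than that of all genes (2073 bases), were higher in 20 of 35 and lower in 0, and 9 and 5 after scaling to a common sum. Of 49 translation initiation and elongation factors 21 were higher and 11 lower, and 11 and 20 after scaling to a common sum. Relative medians were 0.57 for the assembly factors and 0.48 for the translation factors. Of all tested genes 11.3% were higher and 46.7% lower. NPM1, nucleophosmin, stood at 988, 978 and 1104 FPKM in control and 2089, 1879 and 1918 in OGD (log2 fold change 0.94, SE 0.10, adjusted p = 2.59e-05). EIF4EBP1, the brake on cap-dependent translation and an ATF4 target, rose, with 122 to 152 FPKM in control and 294 to 319 in OGD (log2 fold change 1.16, SE 0.10, adjusted p = 4.94e-06).

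Mitochondrial ribosomal proteins were higher in 36 of 77 and lower in 5, but 17 and 17 after scaling to a common sum. Nuclear genes of respiratory complex I were higher in 12 of 38 and lower in 1 (25 and 1 without control replicate 3, and 3 and 10 after scaling to a common sum). Of 39 genes of complexes II to V 21 were higher and 3 lower (10 and 8 after scaling to a common sum). Complex I thus changed its balance with the scaling, mitochondrial ribosomal proteins came level under 1 scaling, and complexes II to V kept more higher than lower members under all 5. Relative medians were 0.6 for mitochondrial ribosomal proteins, 0.6 for complex I and 0.62 for complexes II to V. Of all tested genes 11.3% were higher and 46.7% lower. SDHA, the flavoprotein of complex II, fell under every scaling, with 41.3 to 52.4 FPKM in control and 24.3 to 26.8 in OGD (log2 fold change -0.82, SE 0.10, adjusted p = 6.79e-05).

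The cytosolic heat shock genes differed in direction with the scaling. Of 26, 1 was higher and 11 lower, and after median-of-ratios scaling 10 and 4, with a relative median of 0.1. The inducible Hsp70 genes HSPA1A (19.8, 13.9 and 15.1 FPKM in control and 6.92, 6.63 and 7.39 in OGD; log2 fold change -1.10, SE 0.13, adjusted p = 4.16e-05) and HSPA1B (-0.92) fell. They are near-identical and may share reads. BAG3, their cofactor, fell too (-0.91). The constitutive HSPA8 was the higher one (0.58), but not after quantile normalization, and HSP90AA1, which overlaps WDR20, was not called (0.07).

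Redox and iron genes divided. Of 30 genes of the NRF2, thioredoxin and glutathione list 9 were higher and 8 lower (16 and 4 after median-of-ratios scaling, 4 and 16 after scaling to a common sum). The relative median was 0.3, and of all tested genes 11.3% were higher and 46.7% lower. TXN, thioredoxin, rose, with 699.7 to 882 FPKM in control and 1383 to 1521 in OGD (log2 fold change 0.94, SE 0.12, adjusted p = 6.51e-05), and GPX1 (0.58) and NQO1 (0.49) rose. The glutathione reductase GSR fell, with 14.7 to 26.9 FPKM in control and 7.85 to 8.51 in OGD (log2 fold change -1.18, SE 0.18, adjusted p = 2.38e-04). CAT, which breaks down hydrogen peroxide (-0.95), and GCLM, a subunit of the enzyme that starts glutathione synthesis (-0.83), also fell. SRXN1 was listed at 0 in control replicate 2 and at 0 to 11.03 FPKM over all controls, which can be a failed estimate, and was not called. The ferritin chains were higher, although neither was called after quantile normalization. FTL stood at 1483, 1815 and 1652 FPKM in control and 3286, 3500 and 3505 in OGD, and FTH1 at 1116, 1218 and 1303 FPKM in control and 2176, 2149 and 2250 in OGD. FTH1 overlaps BEST1, whose values in OGD were 33.97, 38.3 and 1.91 FPKM against 1.64, 1.13 and 1.29 in control, with OGD replicate 3 beside the controls. STEAP3, an iron reductase, rose, with 1.84 to 2.74 FPKM in control and 7.15 to 8.11 in OGD (log2 fold change 1.38, SE 0.13, adjusted p = 1.11e-05). IREB2, an iron regulatory protein, was lower (-0.68), but not after quantile normalization.

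Of all lists, interferon-stimulated genes had the lowest median, -1.07 (relative median -0.76), with 37 of 40 lower and 0 higher, and 30 of them lower under all 5 scalings. MX1, an antiviral GTPase, stood at 187, 164 and 171 FPKM in the control libraries and 50.2, 45.9 and 48.5 in the OGD libraries (log2 fold change -1.83, SE 0.10, adjusted p = 1.13e-07). SAMD9 fell, with 16.4 to 21.9 FPKM in control and 4.62 to 5.004 in OGD (-1.82). OAS3, which makes the activator of RNase L, fell, with 28.9 to 35.3 FPKM in control and 10.1 to 10.7 in OGD (-1.50). Outside the list, DTX3L, a ubiquitin ligase that overlaps PARP9, fell, with 12.8 to 21.6 FPKM in control and 3.33 to 4.44 in OGD (-1.87). Interleukin 1 went the other way. IL1B stood at 24.6, 28.6 and 27.04 FPKM in the control libraries and 139, 142 and 134 in the OGD libraries (log2 fold change 2.33, SE 0.09, adjusted p = 9.82e-09). IL1A stood at 1.46, 1.82 and 1.96 FPKM in control and 6.33, 6.32 and 6.91 in OGD (log2 fold change 1.46, SE 0.14, adjusted p = 9.05e-06). PTX3, a pentraxin that is induced by interleukin 1 and overlaps VEPH1, rose, with 29.9 to 36.96 FPKM in control and 137 to 150.4 in OGD (2.08). IL24, a cytokine gene that overlaps FCMR, rose, with 2.198 to 3.15 FPKM in control and 16.1 to 18.6 in OGD (2.32).

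The list of interleukin 1, NF-kB and chemokine genes gave 4 of 30 higher, IL1A and IL1B among them, and 12 lower (12 and 10 after median-of-ratios scaling). Its relative median was 0.08. IL6 was not called (38.7 to 45.9 FPKM in control and 41.5 to 46.98 in OGD) and neither was ICAM1 (21.8 to 25.1 FPKM in control and 19.8 to 19.9 in OGD). CXCL8 was higher (34.9 to 42.1 FPKM in control and 47.9 to 52.5 in OGD), but not after scaling to a common sum or without control replicate 3 or OGD replicate 1. CCL2 fell, with 68.4 to 77.5 FPKM in control and 34.4 to 42.4 in OGD (log2 fold change -0.95, SE 0.10, adjusted p = 2.71e-05). The chemokine CXCL12 fell, with 47.4 to 57.7 FPKM in control and 24.04 to 25.5 in OGD (-1.05), and the NF-kB inhibitor NFKBIA fell, with 35.8 to 41.5 FPKM in control and 20.3 to 21.1 in OGD (-0.85). IL1R1, the receptor of interleukin 1, fell too (3.91 to 4.798 FPKM in control and 1.72 to 1.902 in OGD; log2 fold change -0.96).

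Immediate early genes numbered 24 lower and 4 higher of 31 (15 and 6 after median-of-ratios scaling). Of all tested genes 46.7% were lower and 11.3% higher. The relative median of the list was -0.3, and 13 members were lower under all 5 scalings. EGR1 stood at 36.7, 32.4 and 24.7 FPKM in control and 9.35, 9.303 and 7.83 in OGD (log2 fold change -1.70, SE 0.14, adjusted p = 3.66e-06). JUNB, which overlaps HOOK2, stood at 116, 77.7 and 83.2 FPKM in control and 23.98, 23.1 and 25.2 in OGD (log2 fold change -1.87, SE 0.14, adjusted p = 1.62e-06), and JUN and FOS fell (-0.91 and -1.16). SGK1, a kinase induced by stress and glucocorticoids, was the exception that rose most, at 7.63, 5.49 and 8.23 FPKM in control and 20.8, 20.8 and 19.7 in OGD (log2 fold change 1.42, SE 0.15, adjusted p = 2.12e-05). MYC was higher (25.5 to 30.9 FPKM in control and 36.7 to 38.9 in OGD, 0.46) except after scaling to a common sum.

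Cell cycle genes were lower in nearly every member tested. Of 43 genes of mitosis 40 were lower and 0 higher (median -0.88, relative median -0.57, 36 lower under all 5 scalings), and of 44 of replication 41 and 0 (median -0.64, relative median -0.33, 19 lower under all 5). CDK1, the mitotic kinase, stood at 329.8, 328 and 324 FPKM in control and 201, 191 and 192 in OGD (log2 fold change -0.75, SE 0.09, adjusted p = 4.45e-05). CCNB1, its cyclin, stood at 238, 230.3 and 244 FPKM in control and 150.4, 148 and 151 in OGD (log2 fold change -0.66, SE 0.08, adjusted p = 5.10e-05). KIF11 (-1.43), KIF20A (-1.37, which overlaps CDC23) and PLK1 (-1.24, which overlaps ERN2) fell furthest among mitotic genes, and GINS1 (-1.61) and UHRF1 (-1.23) among replication genes. CCND1, the G1 cyclin, was not called and overlapped between groups (11.2, 11.2 and 6.88 FPKM in control and 7.74, 6.74 and 7.46 in OGD).

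The labelled cell type was checked against 30 endothelial markers. Of 25 in the table, 11 passed the filter, and several were listed at 0, below the filter or close to it. PLVAP and SOX18 were listed at 0 in all 6 libraries. KDR reached at most 0.00919 FPKM, VWF 0.0746, ERG 0.0688, TEK 0.0639, FLT1 0.0455 and CLDN5, the main claudin of the blood-brain barrier, 0.101. PECAM1 was at 0.871 to 1.55 FPKM in control and 0.362 to 0.485 in OGD. CDH5, VE-cadherin, was at 0.991 to 1.39 FPKM in control and 0.2698 to 0.399 in OGD. Both were called lower, PECAM1 not after quantile normalization, but all their OGD values were under 1 FPKM. Too few controls reached 1 FPKM to meet the filter, so both were tested only with the help of libraries returned to normal medium. FLT4, EMCN, NOS3, MMRN1 and LYVE1 were not analysed here. MCAM, NRP1 and CLEC14A, at 21.9 to 28.9, 13.4 to 15.6 and 5.86 to 9.79 FPKM in control, were not called. EGFL7 was at 10.04 to 14.84 FPKM in control and 4.14 to 6.82 in OGD. It was lower (-0.96), but not after median-of-ratios scaling or quantile normalization. The 25 markers summed to 81.2 to 105 FPKM in control and 64.3 to 67.1 in OGD. Of the 11 tested, 6 were lower and 0 higher, where 46.7% of all tested genes were lower. Their relative median was -0.16, and 3 were lower under all 5 scalings. CD34, at 4.17, 2.32 and 2.43 FPKM in control and 0.1602, 0.293 and 0.0761 in OGD, passed the filter only through controls among these libraries. ENG, endoglin, stood at 17.04, 13.3 and 11.1 FPKM in control and 6.11, 6.75 and 7.11 in OGD (log2 fold change -0.94, SE 0.14, adjusted p = 2.65e-04).

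Markers of other cells were present in part and moved both ways. The 11 pericyte and smooth muscle markers summed to 65.2 to 83.0 FPKM in control and 183 to 191 in OGD. Most of this was TAGLN, an actin-binding protein that overlaps PCSK7 (60.5, 52.6 and 47.7 FPKM in control and 169.8, 178 and 173 in OGD; log2 fold change 1.68, SE 0.09, adjusted p = 1.76e-07). Of the 7 tested 5 were lower (3 after median-of-ratios scaling, 1 under all 5), where 46.7% of all tested genes were lower. Their relative median was -0.16. PDGFRB was among the lower ones (-0.84), and DES, KCNJ8, ABCC9 and MYH11 were below the filter. NOTCH3, also lower, was under 1 FPKM in all 6 libraries and was tested only through libraries returned to normal medium. The 9 fibroblast markers in the table summed to 82.5 to 95.6 FPKM in control and 119 to 121 in OGD. POSTN, a matrix protein, rose, with 21.1 to 23.9 FPKM in control and 80.6 to 84.8 in OGD (log2 fold change 1.83, SE 0.10, adjusted p = 1.65e-07). COL1A1 (-1.14) and COL1A2 (-1.33), which encode type I collagen, fell, with PDGFRA at or below 0.0118 FPKM. Of 10 astrocyte, neuron and microglia markers in the table, summing to 17.6 to 21.2 FPKM in control and 21.1 to 22.0 in OGD, only CD68 passed the filter. The 10 epithelial markers in the table summed to 344 to 426 FPKM in control and 383 to 402 in OGD. EPCAM was listed at 0 in all 6 libraries, while 2 keratins of about equal level moved apart. KRT7 was at 175 to 223 FPKM in control and 252 to 261 in OGD and was higher except after scaling to a common sum or quantile normalization. KRT18, which overlaps KRT8, was at 156 to 188 FPKM in control and 118 to 128 in OGD and was lower except after median-of-ratios scaling. The part of other cells in the results was not tested.

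Of 17 tight junction genes tested 10 were lower and 2 higher (5 and 4 with the length trend removed), where 46.7% of all tested genes were lower and 11.3% higher. Their relative median was -0.11, and 11 of 28 did not pass the filter. TJP1, the scaffold ZO-1, stood at 11.4, 10.9 and 9.35 FPKM in control and 5.91, 5.44 and 4.66 in OGD (log2 fold change -0.87, SE 0.13, adjusted p = 1.64e-04). F11R, the adhesion molecule JAM-A, stood at 5.14, 6.02 and 4.05 FPKM in control and 1.84, 1.85 and 1.83 in OGD (log2 fold change -1.08, SE 0.15, adjusted p = 1.57e-04). OCLN, occludin, was not called and overlapped between groups (2.84, 4.18 and 3.04 FPKM in control and 3.78, 2.79 and 3.27 in OGD). The higher ones were CLDN1, which overlaps CLDN16, at 3.59, 3.29 and 3.75 FPKM in control and 8.62, 8.02 and 7.94 in OGD (log2 fold change 1.02, SE 0.13, adjusted p = 7.16e-05), and CLDN14. The latter was under 1 FPKM in all controls and so passed the filter only through libraries after OGD (0.919, 0.435 and 0.5203 FPKM in control and 3.29, 3.27 and 4.54 in OGD). Of 14 adherens junction genes 11 were lower and 1 higher (6 and 1 after median-of-ratios scaling), with a relative median of -0.29. JUP, plakoglobin, fell most, at 33.8, 27.8 and 21.7 FPKM in the control libraries and 6.18, 7.04 and 6.80 in the OGD libraries (log2 fold change -1.89, SE 0.15, adjusted p = 2.79e-06), with control replicate 3 the lowest control. CTNNB1, beta-catenin, fell, with 53.2 to 58.5 FPKM in control and 32.5 to 37.3 in OGD (-0.67). MMP2, a protease of the basement membrane that belongs to neither list, fell, with 14.1 to 19.02 FPKM in control and 8.16 to 9.76 in OGD (log2 fold change -0.73, SE 0.14, adjusted p = 8.89e-04). CDH13, T-cadherin, rose, with 5.65 to 7.33 FPKM in control and 13.0 to 16.5 in OGD (log2 fold change 1.02, SE 0.13, adjusted p = 7.33e-05).

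**Figure D4:**
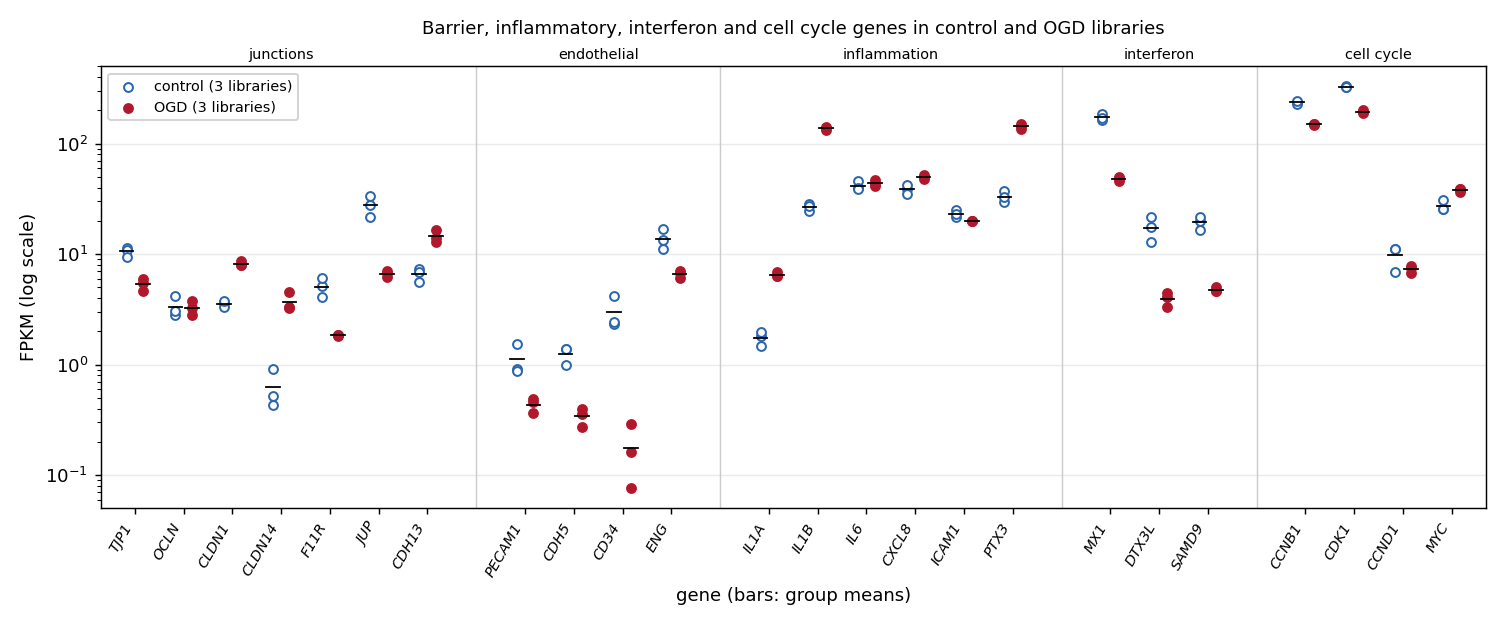
FPKM on a log axis of 24 junction, endothelial, inflammatory, interferon-stimulated and cell cycle genes in each control library (open circles) and each OGD library (filled circles), with group means as bars. JUP, TJP1 and F11R lie below control and CLDN1, CLDN14 and CDH13 above, CD34 lies far below, and IL1A, IL1B and PTX3 lie above control while IL6 overlaps it.

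Carriers and vesicle genes of the barrier gave 3 higher and 11 lower of 29 (9 and 7 with quantile normalization), with a relative median of 0.08. CAVIN2, a coat protein of caveolae, fell, with 6.77 to 7.89 FPKM in control and 1.48 to 1.67 in OGD (log2 fold change -1.69, SE 0.14, adjusted p = 3.29e-06), and CAVIN1 fell too (-0.88). SLC44A1, a choline carrier, fell, with 10.2 to 13.2 FPKM in control and 3.79 to 4.52 in OGD (-1.27). The drug pump ABCB1, which overlaps RUNDC3B, was near the filter and not called (0.635 to 1.14 FPKM in control and 0.5204 to 0.864 in OGD).

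**Figure D5:**
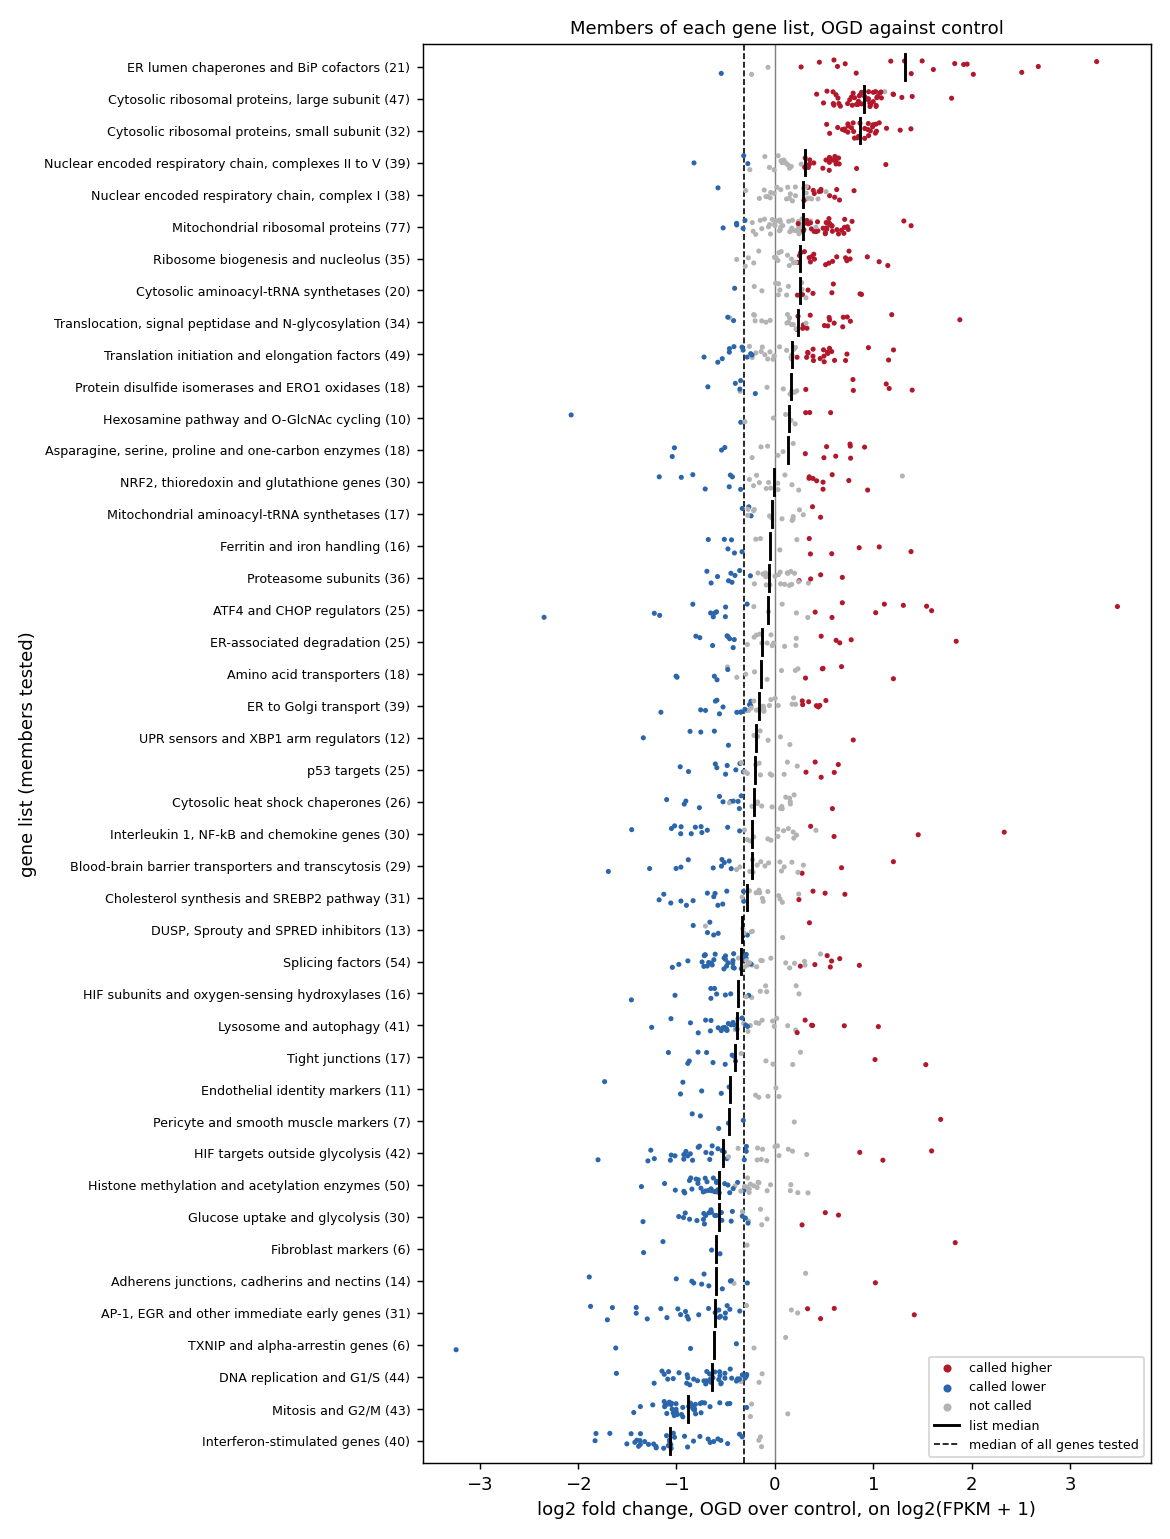
Log2 fold change (OGD over control) of each tested member of 44 gene lists, coloured by call, with the list median as a bar and the median of all genes (-0.31) as a dashed line; the number tested is in brackets. ER chaperones and cytosolic ribosomal proteins stand to the right with medians of 1.32, 0.91 and 0.86, and interferon-stimulated and mitotic genes to the left with medians of -1.07 and -0.88.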

How the data were processed

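RNA from hCMEC/D3 cells was sequenced in 9 libraries, and 1 table of FPKM values made by the authors was deposited, with 9 value columns whose names match the sample titles; 0 value columns had no sample. The build was GRCh38, per the submitters' processing notes. What aligner, counting program, annotation and strand setting were used is not given in the sources used here. The table holds no counts and the read depth behind a value is unknown, so the 3 libraries a group limit the precision. Values were used as deposited, without rescaling, as log2(FPKM + 1), for genes that reached 1 FPKM in 3 or more of the 9 libraries. limma 3.58.1 (R 4.3.3) fitted all 9 libraries as 3 groups with an intensity trend (6 residual and 6.33 prior degrees of freedom), and p-values were adjusted by Benjamini-Hochberg over 10818 genes, with a threshold of 0.05. The test was run on simulated data before use. Transcript length was the median over the GENCODE protein-coding transcripts of a gene (10792 of the tested genes had a length). Overlapping genes and promoters came from RefSeq tables for GRCh38.p14. All were matched by NCBI Gene identifier, and promoters were searched in Python 3.11.15.

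The members and gene lists were chosen with earlier results of these data known. Named genes were the 12 largest changes in each direction (called, same sign and called after median-of-ratios scaling, at least 10 FPKM in the higher group, no overlap of replicates), up to 4 called members with the largest change in each list or, with fewer than 2 called, the 2 with the highest level, and a fixed set of stress, glucose, oxygen, inflammatory, cell cycle and barrier genes. Further members were named after their values were seen, and a few named by these rules are not reported here. Alternatives were the 4 scalings, a pseudocount of 0.1 FPKM, no filter, a filter of 5 FPKM, the 6 libraries alone, a robust prior, the replicate number as a block, each of the 6 libraries left out, and, chosen after seeing the data, median-of-ratios scaling without control replicate 3.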

Additional observations from a re-analysis of the deposited data

How the results depend on the processing

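On the deposited scale 1218 genes were higher and 5054 lower, 169 and 501 of them at least 2-fold. Median-of-ratios scaling gave 2930 and 2422 (492 and 118 at least 2-fold), a common sum 608 and 7046 (86 and 1335), quantile normalization 2166 and 2427 (126 at least 2-fold lower) and removal of the length trend 2496 and 2479 (329 and 132). A pseudocount of 0.1 FPKM gave 1223 genes at least 2-fold lower. Median-of-ratios scaling without control replicate 3, added after seeing the data, gave 3102 and 2737 (671 and 189). These alternatives rescale the libraries, drop 1 or, for the pseudocount, widen log ratios of low values; which scale is right was not tested. Leaving out 1 library at a time gave 975 to 1357 higher and 4182 to 5341 lower, 131 to 244 and 409 to 848 at least 2-fold, with 848 without control replicate 3. No other alternative moved these counts by over 1.5 times. Among genes reported by name here, 5 that were called changed sign and lost the call: IARS2 (log2 fold change 0.10 after median-of-ratios scaling, 0.01 after quantile normalization, 0.17 with the length trend removed) and, after quantile normalization, GFPT2 (0.04), NFKB1 (0.04), LDHB (-0.03) and HSPA8 (-0.02). Under the added alternative IARS2 was at 0.18 and NFKB1 at 0.00. Genes not called on the deposited scale changed sign and were called as follows: GFPT1 (0.33 after median-of-ratios scaling, 0.36 after quantile normalization, 0.42 with the length trend removed, 0.29 under the added alternative), EPAS1 (0.28 after median-of-ratios scaling, 0.33 with the length trend removed, 0.30 under the added alternative), EIF2AK3 (0.32 after quantile normalization, 0.38 with the length trend removed), OCLN (0.43), EDEM1 (0.31) and MCAM (0.27) with the length trend removed, and HSP90AA1 (-0.20) and MARS1 (-0.26) after scaling to a common sum. Replicates with the same number did not deviate together (correlations -0.005, -0.063 and 0.032), and with the replicate block 1166 genes were higher and 4790 lower, 171 and 503 at least 2-fold. With 3 libraries a group and no counts, low genes are limited by a spread that could not be split into counting and other error.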

Other observations

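Several genes outside these groups were among the largest changes. ANKRD1, a nuclear ankyrin repeat protein, stood at 33.1, 29.4 and 30.2 FPKM in control and 154, 138 and 148 in OGD (log2 fold change 2.21, SE 0.11, adjusted p = 1.12e-07). PSG5, a pregnancy-specific glycoprotein, stood at 1.15, 1.901 and 1.43 FPKM in control and 10.8, 10.2 and 10.1 in OGD (2.20). RPL22L1, a paralog of a ribosomal protein, stood at 118, 85.6 and 186 FPKM in control and 535, 556 and 557 in OGD (2.14). G0S2, an inhibitor of triglyceride lipase, reached 182 to 189.6 FPKM from 46.5 to 63.0, and F3, the tissue factor that starts coagulation, 64.7 to 69.99 from 24.7 to 34.7. The metallothioneins MT1X and MT1E, close copies that may share reads, rose (log2 fold changes 1.33 and 1.28). Among the largest falls was C1QL1, at 30.7, 30.8 and 18.7 FPKM in control and 3.41, 3.52 and 3.22 in OGD (log2 fold change -2.63, SE 0.16, adjusted p = 5.65e-07). Others were EFNA1, an ephrin ligand (57.9, 38.9 and 50.4 FPKM in control and 13.2, 12.7 and 12.3 in OGD), DEPP1, a FOXO target that overlaps RASSF4 (34.7, 33.8 and 32.1 FPKM in control and 8.44, 8.53 and 8.15 in OGD), and PLEKHA2, whose control values spread from 7.701 to 20.1 FPKM. G0S2, F3, MT1X and MT1E were chosen after their values were seen.

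The lists below stand beside all tested genes, of which 46.7% were lower and 11.3% higher. Relative medians were 0.03 for cholesterol genes, -0.26 for histone enzymes, -0.07 for lysosome and autophagy genes and -0.03 for splicing factors. They were 0.11 for p53 targets, 0.25 for the proteasome, -0.02 for DUSP, Sprouty and SPRED genes and 0.28 for mitochondrial synthetases. Of 31 cholesterol genes 14 were lower and 4 higher (7 and 13 after median-of-ratios scaling). HMGCS1 fell, with 149 to 195 FPKM in control and 68.02 to 92.6 in OGD (-1.13) and SREBF2, a main regulator of these genes, fell, with 16.8 to 27.2 FPKM in control and 11.4 to 13.4 in OGD (-0.83). Histone methylation and acetylation enzymes were lower in 32 of 50 and higher in 0, and 16 and 3 with quantile normalization. Their median transcript is long, at 2648 bases. HDAC5, a class II deacetylase, fell, with 6.47 to 12.7 FPKM in control and 2.54 to 3.69 in OGD (log2 fold change -1.36, SE 0.20, adjusted p = 1.80e-04). Of 41 lysosome and autophagy genes 22 were lower and 6 higher (8 and 11 after median-of-ratios scaling), with ULK1 (-1.06) and ATG9A (-1.25) lower and WIPI1, which overlaps ARSG and PRKAR1A, higher (1.05). Splicing factors were lower in 31 of 54 and higher in 7, and 13 and 14 after median-of-ratios scaling. Of 25 p53 targets 9 were lower and 5 higher (2 and 10 after median-of-ratios scaling). Proteasome subunits gave 4 higher and 9 lower of 36, and 23 and 2 after median-of-ratios scaling. DUSP, Sprouty and SPRED genes gave 1 higher and 6 lower of 13, and the mitochondrial aminoacyl-tRNA synthetases 2 and 3 of 17 (9 and 0 after median-of-ratios scaling).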
